A study of Mus musculus with 31 samples.

Results

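Mitochondrial respiratory chain genes were taken as every non-control probe set (a group of oligonucleotides on the array that measures 1 transcript) whose single gene symbol starts with Nduf, Uqcr, Atp5, Cox4, Cox5, Cox6, Cox7 or Cox8, or is Sdha, Sdhb, Sdhc, Sdhd, Cycs or Cyc1. The rule found 101 probe sets for 73 genes among the 12422 non-control probe sets of the array. They cover 29 genes of complex I, 2 assembly factors of complex I, 4 genes of complex II, 8 of complex III, cytochrome c, 15 of complex IV and 14 of complex V. All are encoded in the nucleus. No probe set carries the symbol of a subunit encoded by mitochondrial DNA, so those subunits are not analysed here.

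The cells were D10.G4.1, a cloned line of mouse T helper cells, that had received the peptide neuromedin U (NmU) or phosphate-buffered saline (PBS). Cells were treated with NmU for 0.8, 3, 6 or 12 h, or with PBS for the same 4 times. There were 3 arrays for NmU at 3 h and 4 for each of the other groups, so that 8 groups made 31 arrays of total RNA. The D10.G4.1 line is 1 clone. The labels do not say whether the arrays of a group came from separate cultures, so a p-value here reflects only the scatter of these samples, which may be technical.

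The respiratory chain passes electrons from NADH (complex I) and succinate (complex II) through complex III and the small carrier cytochrome c to oxygen at complex IV. The proton gradient built on the way drives complex V, the ATP synthase. T cells run the chain at rest, and activated T cells add glycolysis to it. Nuclear genes of the chain are transcribed under the control of factors that include NRF1, the ETS factor GABP and YY1.

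Values are probe set signals as the authors deposited them, an intensity on a linear scale that had been brought to a common mean per array (trimmed means of 150.09 to 150.11). Each change is a difference of log2 signals, NmU minus PBS, from a limma model over all 31 arrays, with its standard error (SE) and 95% interval. A difference is called where its p, after Benjamini-Hochberg adjustment across the 7930 probe sets bright enough to test, was under 0.05. On single arrays, 15.4% to 24.1% of signals did not exceed the floor of 5.8 set for dim values, and correlations between arrays of a group were 0.951 to 0.982. The array at PBS 3 h replicate 4 had the lowest quality weight, 0.28. The array at NmU 6 h replicate 4 had the highest median deviation over all probe sets among the 8 arrays of that time, 0.06 on the log2 scale.

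Most markers of the labelled cell were measured. Of 9 T cell markers 7 passed the brightness filter, with Cd3d at 1080 to 1760 and Cd4 at 230 to 334, whereas Thy1 and Cd5 did not pass. All 5 markers of T helper type 2 cells passed. Il4 was higher with NmU at all 4 times, by 2.70 ± 0.11 (SE) at 3 h on the log2 scale (limma, adjusted p = 5.01e-15). Of the 5 markers 3, 5, 3 and 3 were called higher at 0.8, 3, 6 and 12 h. Below 0 lay 1 marker at 6 h (-0.12) and 1 at 12 h (-0.49). Of 12 markers of other cells 6 passed. They were the B cell genes Cd79a, Cd79b and Ms4a1, the myeloid genes Cd14 and Csf1r and the globin gene Hba-a1, with median signals from 13.1 for Cd79b to 70.9 for Cd14. The 6 that did not pass were Cd8a, Cd8b1, Adgre1, Itgam, Lyz2 and Ncr1, each at the floor on 25 to 31 of the 31 arrays. Summed signals of all 12 were between 253 and 315 for NmU and between 222 and 284 for PBS at 6 h, and their part in the results was not tested.

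Of the 101 respiratory chain probe sets, 80 passed the filter, and they represent 67 of the 73 genes. Of these 80, 76 were above the filter level in all 8 groups and 4 in only some of them (Ndufc2, one of the probe sets of Cox6c, one of Atp5g2, and Atp5j2). The other 21 did not pass. The 6 genes with no passing probe set were Ndufa12, an accessory subunit of complex I, and Cox5a, Cox6a2, Cox6b2, Cox7a1 and Cox8a of complex IV. Where a gene had several passing probe sets, the brightest stood for it. Of the 11 such genes, 5 had probe sets that differed in sign at 6 h (Atp5l, Cox4i1, Cyc1, Ndufa3 and Ndufv2), and 5, 9 and 7 did at 0.8, 3 and 12 h.

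Respiratory chain transcripts differed little between NmU and PBS. No member was called at 0.8 or 12 h. Sdha, the catalytic flavoprotein of complex II, was lower with NmU than with PBS at 3 h. Ndufb10 and Ndufb11, both accessory subunits of complex I, and Atp5j, coupling factor 6 of the ATP synthase, were lower at 6 h. None of the 80 was called higher at any time. These are differences between treatments at the same time, not changes over time. The 4 log2 differences were between -0.49 and -0.28.

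At 0.8 h, 0 of 80 members were called higher, against 0.782% of all probe sets tested, and 0 lower, against 0.0631%. By limma, 3 members had an unadjusted p under 0.05 there (Ndufb9, Uqcrc2 and Cox7b), which is 3.75%, against 6.8% of all probe sets tested. At 3 h, 0 members were higher, against 4.44% of all probe sets, and 1 was lower, against 5.73%. At an unadjusted p under 0.05 there were 4 members at 3 h (Sdha, Ndufa3, Atp5g2 and Ndufb10), which is 5.0%, against 24.1%. At 6 h, 0 were higher, against 2.85%, and 3 were lower, against 2.03%. The unadjusted p was under 0.05 for 20 of 80 members at 6 h (25.0%), against 17.4% of all probe sets tested. At 12 h, 0 were higher, against 0.858%, and 0 lower, against 0.404%, with 4 members at an unadjusted p under 0.05 (Cox7a2, Cox6c, Ndufa3 and Atp5c1), or 5.0%, against 11.1%. The share at an unadjusted p under 0.05 was thus above that of all probe sets at 6 h and below it at the other 3 times. Members had narrower intervals than all probe sets, as given below, so these shares do not compare the sizes of changes. The 3 of 80 lower at 6 h are 3.75%, against 2.03%. That count depended on the fit: with array weights 9 of 80 were lower at 6 h (11.2%), against 3.98% of all probe sets under the same weights, and with only the 2 groups compared 0 were, against 0.668%.

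A moderated F test over the 4 times called 3 members, Ndufb10, Ndufa3 and Sdha (limma, adjusted p = 0.0223, 0.0280 and 0.0451), against 11.6% of all probe sets. With the replicate number as a block, and with the arrays scaled to a common median, this F test called 0 members. The F test of whether the effect of NmU differed between times called 0 of 80, against 4.04%. Its lowest adjusted p was 0.138, for Cox7a2, and 6 members had an unadjusted p under 0.05. Whether a difference from PBS at one time differed from that at another was therefore not established for any member.

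The intervals bound how large a missed change could be. At 0.8, 3, 6 and 12 h, 59, 55, 52 and 54 of the 80 probe sets had a 95% interval that lay wholly within 0.5 of 0 on the log2 scale, a fold of 1.41 in either direction. In percent these were 73.8, 68.8, 65.0 and 67.5 of the members, against 53.0, 34.3, 44.0 and 49.2 of all probe sets tested. The median distance from a difference to the end of its interval was 0.24, 0.25, 0.24 and 0.24 for members. Over all probe sets tested it was 0.34, 0.37, 0.34 and 0.34. Narrower intervals raise the share that can lie within 0.5, so these percentages do not show that members changed less. Precision is limited by the number of arrays.

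**Figure D1:**
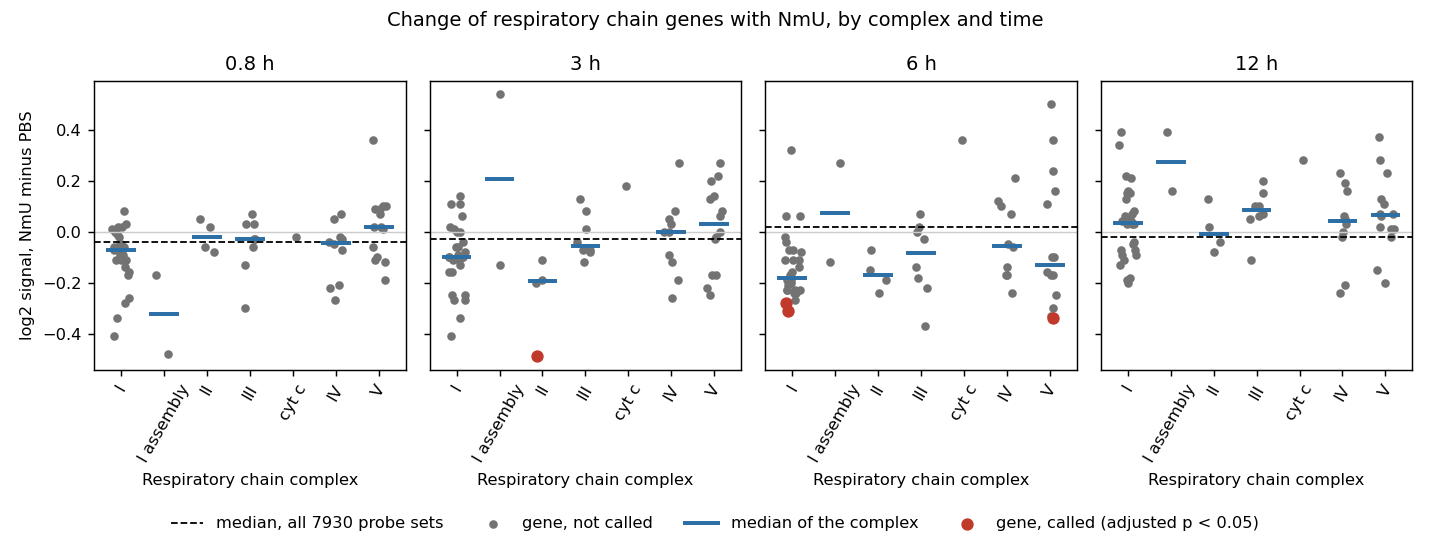
Log2 difference of signal, NmU minus PBS, for each of the 67 genes (points) by complex at 0.8, 3, 6 and 12 h, with the median of each complex (blue lines) and of all 7930 probe sets (dashed line). Called genes are red: Sdha at 3 h, and Ndufb10, Ndufb11 and Atp5j at 6 h, all below 0; complex I has 25 of its 28 points below 0 at 6 h.

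Of the 73 genes, 59 had a promoter sequence in the RefSeq table of build GRCm38.p6, which holds 250 bases before and 50 after the start of transcription. Letters known from binding sites of the factors above were searched on both strands. The NRF1 letters GCATGCGC were present in 11 of 59 genes (18.6%), against 3.93% of 17491 protein-coding genes. The ETS letters CCGGAAG, the type GABP binds, were present in 16 (27.1%), against 12.9%, the YY1 letters AAGATGGCG in 5 (8.47%), against 2.14%, and the Sp1 letters GGGCGG in 29 (49.2%), against 49.2%. A match is a description of the letters and not of binding.

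The 100 bases before the start are given for the 4 called genes and for Cycs and Atp5k, which hold the NRF1 letters. In the stretches shown for the called genes none of these letters but those of Sp1 occurs. Only these exact letters were searched, so sites spelled otherwise were not looked for. Absence of the letters does not show that a factor has no site there. Atp5j has a second start in the table, downstream of the one shown, and the 100 bases before that one hold the ETS and the YY1 letters. They are written 5′ to 3′ on the gene's strand, which is the minus strand for all 6, with matching letters in capitals. Positions are chr17:24724424-24724523 for Ndufb10, chrX:20617620-20617719 for Ndufb11, chr13:74350241-74350340 for Sdha, chr16:84835626-84835725 for Atp5j, chr6:50566570-50566669 for Cycs and chr5:108434400-108434499 for Atp5k.
Ndufb10: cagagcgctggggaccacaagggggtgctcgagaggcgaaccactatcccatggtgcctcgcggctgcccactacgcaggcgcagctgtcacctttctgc
Ndufb11: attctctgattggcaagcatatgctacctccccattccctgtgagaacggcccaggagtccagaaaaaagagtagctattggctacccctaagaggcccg
Sdha: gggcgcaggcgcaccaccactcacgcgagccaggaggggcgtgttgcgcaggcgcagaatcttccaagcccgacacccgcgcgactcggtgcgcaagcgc
Atp5j (Sp1 letters in capitals): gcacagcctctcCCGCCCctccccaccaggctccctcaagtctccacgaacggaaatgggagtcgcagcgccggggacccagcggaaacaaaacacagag
Cycs (NRF1 letters in capitals): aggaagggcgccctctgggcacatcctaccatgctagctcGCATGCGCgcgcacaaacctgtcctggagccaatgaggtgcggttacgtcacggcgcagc
Atp5k (NRF1 letters in capitals, on both strands with overlap): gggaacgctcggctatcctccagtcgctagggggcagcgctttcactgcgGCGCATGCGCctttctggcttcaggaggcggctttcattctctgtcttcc

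Sdha carries the flavin that oxidises succinate and belongs both to the citric acid cycle and to complex II. Its signals at 3 h were 67.0, 69.4 and 64.2 with NmU, against 91.6, 100.1, 90.1 and 93.6 with PBS. All 3 NmU arrays lay below all 4 PBS arrays, and below every other array of the series. How many of all probe sets had groups without overlap was not counted. No weight is therefore put on a lack of overlap, here or for the genes below. The log2 difference was -0.49 ± 0.12 (SE), with an interval of -0.74 to -0.24, a ratio of 0.713 (limma, adjusted p = 0.00906). Means at 3 h were 66.9 ± 2.60 with NmU (SD, n = 3) and 93.8 ± 4.41 with PBS (SD, n = 4).

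At 0.8 h Sdha read 84.8, 117.3, 100.8 and 87.4 with NmU, against 112.6, 101.7, 97.0 and 93.1 with PBS. At 6 h it read 91.0, 70.9, 84.3 and 87.2 with NmU, against 77.7, 90.8, 116.5 and 98.7 with PBS. At 12 h it read 113.7, 95.7, 102.2 and 117.2 with NmU, against 118.6, 100.4, 105.8 and 115.3 with PBS. The groups overlapped at these 3 times, with log2 differences of -0.06, -0.19 and -0.04 for Sdha at 0.8, 6 and 12 h (adjusted p = 0.985, 0.397 and 0.935). Sdha at 3 h stayed called when any single array was left out (limma, 31 of 31 exclusions, adjusted p 0.00559 to 0.0464). Of these fits, only those without 1 of the 3 NmU or 4 PBS arrays of 3 h can change its difference. The call was lost when the arrays were scaled to a common median or when only the 2 groups compared were fitted.

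The other subunits of complex II are the iron-sulfur protein Sdhb and the membrane anchors Sdhc and Sdhd. None was called at any time. At 3 h their log2 differences were -0.19, -0.20 and -0.11, so all 4 subunits lay below 0, and the median of the complex was -0.19. At 6 h the 3 were at -0.24, -0.15 and -0.07, and the median of the complex was -0.17. At 0.8 and 12 h the median of complex II was -0.02 and -0.01. Sdhd had the highest value of complex II, 0.13 at 12 h, with an interval of -0.12 to 0.39. Sdhd averaged 771 ± 36.4, 826 ± 104, 835 ± 99.3 and 823 ± 107 with NmU at 0.8, 3, 6 and 12 h, against 817 ± 97.7, 886 ± 68.5, 872 ± 50.3 and 757 ± 158 with PBS (SD). Its groups overlapped at every time.

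Complex I held the most members, 28 genes that passed. Its 4 measured core subunits are Ndufv1, which binds NADH and flavin, the iron-sulfur proteins Ndufv2 and Ndufs1, and Ndufs3. The other 24 are accessory subunits, which surround the core and are needed to build or stabilise it. At 6 h the median log2 difference was -0.18 over the 28 genes, -0.05 over the core subunits and -0.20 over the accessory subunits, against 0.02 over all probe sets tested. Of its 31 probe sets 26 (83.9%) lay below 0 at 6 h, against 46.9% of all probe sets, 2 were called lower, against 2.03%, and 11 (35.5%) had an unadjusted p under 0.05, against 17.4%. The median distance from a difference to the end of its interval was 0.22 for these probe sets at 6 h, against 0.34. The shares by p therefore do not compare the sizes of changes. At 0.8, 3 and 12 h the median of complex I was -0.07, -0.10 and 0.04.

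Ndufb10 lies in the membrane arm of complex I. At 6 h its signals were 556.0, 631.9, 611.2 and 557.6 with NmU, against 721.5, 714.2, 789.1 and 703.9 with PBS. The groups did not overlap. The log2 difference was -0.31 ± 0.08 (SE), with an interval of -0.49 to -0.14, a ratio of 0.804 (limma, adjusted p = 0.0253). At 3 h Ndufb10 read 639.0, 589.3 and 617.1 with NmU, against 759.1, 650.7, 702.8 and 831.6 with PBS. These groups did not overlap either, and the log2 difference of -0.25 ± 0.09 was not called (limma, adjusted p = 0.0748).

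At 0.8 h Ndufb10 read 600.8, 613.6, 675.8 and 639.9 with NmU, against 690.5, 636.9, 630.4 and 729.4 with PBS. At 12 h it read 713.7, 639.0, 700.1 and 679.2 with NmU, against 756.3, 665.4, 626.4 and 773.5 with PBS. The groups overlapped at both times, at log2 differences of -0.09 and -0.04. A second Ndufb10 probe set was too dim to pass.

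Ndufb11 also lies in the membrane arm. At 6 h it read 633.6, 644.6, 699.5 and 651.1 with NmU, against 793.0, 755.0, 892.0 and 754.2 with PBS. Every NmU array lay below every PBS array. The log2 difference was -0.28 ± 0.08 (SE), with an interval of -0.44 to -0.12, a ratio of 0.824 (limma, adjusted p = 0.0359).

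At 0.8 h Ndufb11 read 692.1, 695.6, 667.4 and 681.8 with NmU, against 789.1, 673.7, 697.8 and 757.5 with PBS. At 3 h it read 703.1, 719.0 and 679.1 with NmU, against 731.1, 770.5, 674.2 and 710.7 with PBS. At 12 h it read 723.7, 623.7, 726.9 and 635.5 with NmU, against 781.9, 652.7, 688.7 and 769.6 with PBS. The groups overlapped at all 3 times, and Ndufb11 differed by -0.09, -0.04 and -0.09 on the log2 scale.

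Ndufa3, another accessory subunit, was called by the F test over times and at no single time, and the F test call was lost with the replicate block and with scaling to a common median. At 3 h it read 613.8, 664.5 and 604.1 with NmU, against 791.5, 679.6, 688.5 and 838.7 with PBS. At 6 h it read 598.1, 572.7, 576.9 and 664.7 with NmU, against 749.8, 669.5, 707.9 and 691.9 with PBS. The groups overlapped at neither of these times, with log2 differences of -0.25 ± 0.09 and -0.23 ± 0.08 for Ndufa3 at 3 and 6 h (SE; limma, adjusted p = 0.0625 and 0.109).

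At 0.8 h Ndufa3 read 658.2, 611.1, 639.0 and 702.6 with NmU, against 678.6, 669.7, 635.3 and 733.8 with PBS. At 12 h it read 608.3, 569.8, 637.8 and 688.1 with NmU, against 716.2, 708.0, 674.6 and 722.8 with PBS. The groups overlapped at both times, at -0.06 and -0.18 on the log2 scale. A second, much dimmer Ndufa3 probe set gave 0.25 ± 0.43 at 3 h and 0.14 ± 0.39 at 6 h (SE), the opposite sign with intervals that include 0 and the values of the brighter one. Both probe sets carry the suffix that marks sequences shared with related transcripts, so signals of the 2 probe sets may not be specific to Ndufa3. The same suffix is on the probe sets that stand for Atp5g2, Atp5d, Atp5md, Cox4i1, Cox6a1, Cox6c, Ndufb2, Ndufb5, Uqcrb and Uqcrc2. The same limit holds for those genes.

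Among the other accessory subunits at 6 h, Ndufc1 lay at -0.27, Ndufa13 at -0.24, Ndufa7, Ndufa9 and Ndufb7 at -0.23 and Ndufb2 at -0.21 on the log2 scale. None of these was called. Ndufa13 is also known as GRIM-19, and Ndufa9 sits near the quinone-binding site. Of the core subunits Ndufv1 lay at -0.14, Ndufs1 at -0.08, Ndufv2 at -0.02 and Ndufs3 at 0.06. Ndufab1, the mitochondrial acyl carrier protein, lay at 0.06, and Ndufa1 at 0.32 was the other value above 0.

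The largest values of complex I in either direction came from probe sets with a wide spread. Ndufb3 lay at 0.39 at 12 h, with an interval of -0.19 to 0.97, from signals of 564.2, 430.8, 520.7 and 341.7 with NmU, against 557.6, 248.4, 343.5 and 307.2 with PBS. Its groups overlapped there and at the other times, where Ndufb3 averaged 439 ± 131, 457 ± 36.1 and 431 ± 162 with NmU at 0.8, 3 and 6 h, against 524 ± 140, 515 ± 167 and 516 ± 93.0 with PBS (SD). Ndufa1 lay at -0.41 at 0.8 h, with an interval of -1.16 to 0.34, from 26.6, 28.4, 41.8 and 31.6 with NmU, against 36.4, 44.4, 44.0 and 43.6 with PBS. It averaged 28.2 ± 12.9, 36.7 ± 8.07 and 32.1 ± 10.6 with NmU at 3, 6 and 12 h, against 36.5 ± 13.6, 29.6 ± 7.98 and 35.0 ± 19.9 with PBS (SD). Neither Ndufb3 nor Ndufa1 was called at any time, and their groups overlapped at every time.

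Ndufaf1 and Ndufaf4 are assembly factors that bind complex I while it is built and are not part of the finished enzyme. Ndufaf4 read 101.8, 82.7 and 85.5 with NmU at 3 h, against 43.3, 62.3, 73.0 and 73.4 with PBS. The groups did not overlap, and the log2 difference of 0.54 ± 0.26 (SE) was not called (limma, adjusted p = 0.207). At 0.8 h Ndufaf4 lay at -0.48, with an interval of -0.98 to 0.02. It averaged 61.7 ± 8.68, 80.0 ± 31.6 and 90.8 ± 20.4 with NmU at 0.8, 6 and 12 h, against 87.5 ± 21.0, 63.1 ± 6.92 and 70.1 ± 19.7 with PBS (SD), and its groups overlapped at these 3 times. Ndufaf1 lay between -0.17 and 0.16.

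Complex III moves electrons from ubiquinol to cytochrome c. None of its 8 genes was called. The median log2 difference was -0.03, -0.06, -0.09 and 0.08 at 0.8, 3, 6 and 12 h. The core proteins Uqcrc1 and Uqcrc2 lay at 0.02 and 0.00 at 6 h, and Cyc1, the cytochrome c1 subunit, at 0.07. The 5 small subunits (Uqcrh, Uqcr10, Uqcrq, Uqcr11 and Uqcrb) all lay below 0 at 6 h, with a median of -0.18.

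Uqcrh, the hinge protein, lay lowest. At 6 h it read 688.8, 914.9, 756.2 and 602.1 with NmU, against 1038.5, 1003.2, 874.4 and 874.6 with PBS. One NmU array lay among the PBS arrays, and the log2 difference of -0.37 ± 0.11 (SE) was not called (limma, adjusted p = 0.0625). Uqcrh averaged 770 ± 101, 874 ± 39.2 and 703 ± 48.0 with NmU at 0.8, 3 and 12 h, against 784 ± 83.4, 924 ± 56.9 and 762 ± 82.9 with PBS (SD), with overlap at each. The highest value of the complex was 0.20 for Uqcr11 at 12 h, with an interval of -0.07 to 0.47. Uqcr11 averaged 661 ± 86.8, 719 ± 61.8, 649 ± 102 and 737 ± 118 with NmU at 0.8, 3, 6 and 12 h, against 644 ± 50.1, 786 ± 94.6, 710 ± 35.4 and 640 ± 84.8 with PBS (SD), and its groups overlapped throughout.

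Cycs, the somatic cytochrome c that carries electrons from complex III to complex IV and also takes part in apoptosis, was not called. At 6 h it read 356.1, 179.4, 339.2 and 263.2 with NmU, against 181.3, 199.4, 268.3 and 217.7 with PBS. The second of these NmU arrays was the lowest of all 8, the first and the third lay above every PBS array, and the groups overlapped. The log2 difference was 0.36 ± 0.18 (SE), with an interval of -0.01 to 0.73 (limma, adjusted p = 0.308). Cycs averaged 271 ± 41.3, 262 ± 42.1 and 301 ± 41.5 with NmU at 0.8, 3 and 12 h, against 273 ± 17.5, 232 ± 42.3 and 247 ± 29.3 with PBS (SD). Without NmU 6 h replicate 2, Cycs was called higher at 6 h, 1 of 80 members, against 216 of all 7935 probe sets. In that fit 5 of 80 (6.25%) were called lower (Cox6a1, Ndufa7, Ndufb10, Ndufb2 and Uqcrh), against 1.9%.

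Complex IV, cytochrome c oxidase, hands the electrons to oxygen. None of its 10 genes that passed was called, and its median log2 difference was -0.05, -0.00, -0.05 and 0.04 at 0.8, 3, 6 and 12 h. Over the 7 ubiquitous subunits the median at 6 h was -0.14. Cox4i1, the widely expressed form of subunit 4, lay at 0.07 at 6 h and at -0.19 at 3 h. Cox7a2l, which joins complexes into supercomplexes, lay between -0.12 and 0.06.

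Cox7b held both extremes of complex IV. At 0.8 h it read 721.4, 703.5, 645.6 and 531.7 with NmU, against 806.1, 768.9, 809.7 and 736.6 with PBS. The groups did not overlap, and the log2 difference of -0.27 ± 0.13 (SE) was not called (limma, adjusted p = 0.713). At 3 h Cox7b read 847.0, 779.7 and 745.1 with NmU, against 613.1, 684.3, 571.2 and 776.2 with PBS, a difference of 0.27 with an interval of -0.02 to 0.55. Those groups overlapped, as they did at 6 and 12 h, where Cox7b averaged 636 ± 64.2 and 697 ± 105 with NmU, against 656 ± 56.0 and 682 ± 116 with PBS (SD).

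Several complex IV subunits come as a ubiquitous form and a form restricted to heart and muscle or to testis. Of the restricted forms Cox6a2, Cox7a1 and Cox6b2 did not pass. Cox8b, the heart and muscle form of subunit 8, and Cox8c, its testis form, each had 1 probe set that passed and 1 that did not. The ubiquitous Cox8a did not pass. The probe set of a ubiquitous gene can thus lie below the filter in these cells, so that no statement about which form was present is made from these signals.

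Cox8c averaged 164 ± 9.05, 183 ± 6.35, 180 ± 18.6 and 177 ± 20.3 with NmU at 0.8, 3, 6 and 12 h, against 191 ± 30.7, 173 ± 10.6, 166 ± 13.5 and 212 ± 43.5 with PBS (SD). Cox8b averaged 110 ± 36.3, 110 ± 16.6, 123 ± 34.1 and 119 ± 11.5 with NmU, against 124 ± 13.4, 132 ± 21.3, 103 ± 8.72 and 122 ± 33.7 with PBS. Log2 differences were between -0.24 and 0.12 for Cox8c and between -0.26 and 0.21 for Cox8b, and none was called.

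Among the ubiquitous partners, Cox6a1 read 1965.6, 3010.1, 2429.5 and 1989.2 with NmU at 6 h, against 2810.2, 2711.4, 2692.1 and 2710.8 with PBS. Its second NmU array was the highest of the 8 and the other 3 were below all PBS arrays, and the log2 difference of -0.24 ± 0.10 (SE) was not called (limma, adjusted p = 0.173). Cox6a1 averaged 2370 ± 43.9, 2710 ± 115 and 2470 ± 85.4 with NmU at 0.8, 3 and 12 h, against 2400 ± 117, 2620 ± 129 and 2390 ± 238 with PBS (SD). Cox7a2 read 1549.4, 1573.0, 1605.6 and 1756.1 with NmU at 12 h, against 1429.9, 1389.2, 1376.0 and 1496.2 with PBS. These groups did not overlap, and the log2 difference of 0.19 ± 0.07 (SE) was not called (limma, adjusted p = 0.260).

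At 6 h the difference for Cox7a2 was -0.17, with an interval of -0.32 to -0.03, from means of 1390 ± 144 with NmU and 1560 ± 59.5 with PBS (SD). At 0.8 and 3 h Cox7a2 averaged 1400 ± 49.9 and 1540 ± 25.3 with NmU, against 1460 ± 63.1 and 1540 ± 64.4 with PBS. Cox6b1 averaged 89.3 ± 7.32, 89.7 ± 11.8, 85.9 ± 23.6 and 74.5 ± 16.8 with NmU at the 4 times, against 91.6 ± 12.2, 90.0 ± 12.5, 95.2 ± 16.8 and 88.6 ± 31.8 with PBS (SD), and lay between -0.21 and -0.00.

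Complex V makes ATP in its F1 head, which is joined by stalks to the Fo part in the membrane. The median log2 difference over its 14 genes was 0.02, 0.03, -0.13 and 0.07 at 0.8, 3, 6 and 12 h. Of the 4 measured F1 subunits at 6 h, Atp5a1 (alpha) lay at 0.11, Atp5c1 (gamma) at -0.10, Atp5d (delta) at 0.36 and Atp5e (epsilon) at -0.33. The other 3 passing probe sets of Atp5d lay at 0.11, 0.11 and 0.08, so its value depends on the probe set. The median of the F1 subunits was 0.01, and that of the 10 Fo and stalk subunits was -0.16. Values of complex V were spread more widely than those of complex I, and 5 of 14 genes had an interval within 0.5 of 0 at 6 h, against 22 of 28 in complex I.

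Atp5j, coupling factor 6 of the peripheral stalk, was the 1 member of complex V that was called. At 6 h it read 742.5, 718.2, 841.7 and 649.4 with NmU, against 962.6, 962.0, 952.1 and 842.3 with PBS. The groups did not overlap, by a margin of less than 1 signal unit between the highest NmU and the lowest PBS array. The log2 difference was -0.34 ± 0.09 (SE), with an interval of -0.53 to -0.14, a ratio of 0.792 (limma, adjusted p = 0.0334). Atp5j at 6 h was not called with scaling to a common median, quantile normalisation, cyclic loess, the replicate block or only the 2 groups compared (limma, adjusted p = 0.0525, 0.0652, 0.0636, 0.0611 and 0.155).

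At 0.8 h Atp5j read 774.4, 774.2, 694.0 and 767.3 with NmU, against 769.5, 789.2, 881.4 and 701.6 with PBS. At 3 h it read 807.7, 857.6 and 914.6 with NmU, against 903.5, 768.6, 740.3 and 717.3 with PBS. At 12 h it read 880.8, 750.0, 820.7 and 744.3 with NmU, against 820.6, 701.2, 820.1 and 836.0 with PBS. The groups overlapped at these times, and the log2 differences of Atp5j were -0.06, 0.14 and 0.01.

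Atp5j2, subunit f, had the highest value of all 67 genes at 6 h, 0.50 with an interval of 0.05 to 0.96 (limma, adjusted p = 0.219). It was dim, at 17.4, 24.5, 18.7 and 24.3 with NmU, against 17.0, 19.5, 12.6 and 11.5 with PBS, and the groups overlapped. Atp5j2 averaged 21.0 ± 4.01, 19.6 ± 2.35 and 15.6 ± 1.91 with NmU at 0.8, 3 and 12 h, against 16.1 ± 0.789, 22.9 ± 8.43 and 14.8 ± 4.88 with PBS (SD). Atp5g2, which encodes subunit c of the Fo ring, read 272.5, 260.9, 255.0 and 282.4 with NmU at 6 h, against 345.7, 306.0, 319.4 and 302.9 with PBS. Its groups did not overlap, and the difference of -0.25 ± 0.08 (SE) was not called (limma, adjusted p = 0.0764). Atp5g1, which encodes the same mature protein, lay at 0.24 at 6 h and was not called.

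**Figure D2:**
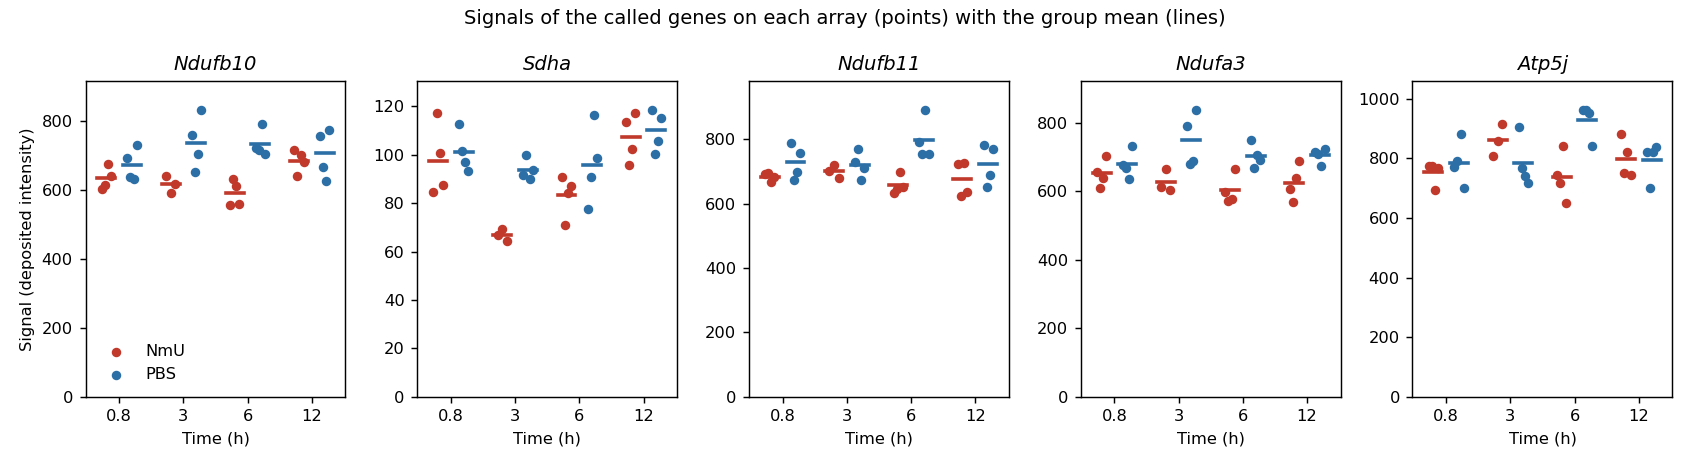
Deposited signal on each array (points) with the group mean (lines) for Ndufb10, Sdha, Ndufb11, Ndufa3 and Atp5j at 0.8, 3, 6 and 12 h, NmU left of PBS, on a linear axis from 0. Sdha at 3 h has all 3 NmU arrays (64.2 to 69.4) below the 4 PBS arrays (90.1 to 100.1), and Ndufb10, Ndufb11, Ndufa3 and Atp5j have no overlap at 6 h. The genes were chosen by calls from these same values, and the share of all probe sets without overlap was not counted.

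The calls at 6 h were lost when any of several single arrays was left out, whereas the differences stayed below 0. Over these fits the log2 difference at 6 h was -0.35 to -0.28 for Ndufb10. It was -0.31 to -0.22 for Ndufb11 and -0.40 to -0.28 for Atp5j. Ndufb10 and Ndufb11 were called in 26 of the 31 fits that left out 1 array, and Atp5j in 25. Leaving out an array of another time cannot change the log2 difference at 6 h, so those fits are no check of it. Only fits without 1 of the 4 NmU or 4 PBS arrays of 6 h bear on the calls. Among these, Ndufb10 was not called in 5, Ndufb11 in 5 and Atp5j in 6, and no call was lost in the others. No member was called lower at 6 h without PBS 6 h replicate 1, PBS 6 h replicate 3, NmU 6 h replicate 1 or NmU 6 h replicate 4, and 1 (Ndufb11) without PBS 6 h replicate 2. With both PBS 3 h replicate 4 and NmU 6 h replicate 4 left out, Sdha was called lower at 3 h (adjusted p = 0.0176), and Ndufa3 and Ndufb10 at 6 h (adjusted p = 0.0341 and 0.0405). Scaling the arrays to a common median left 0 calls at 3 and 6 h, as did fits of only the 2 groups compared. Cyclic loess left Ndufb10 at 6 h, and the replicate block left Ndufb10 and Ndufb11.

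**Figure D3:**
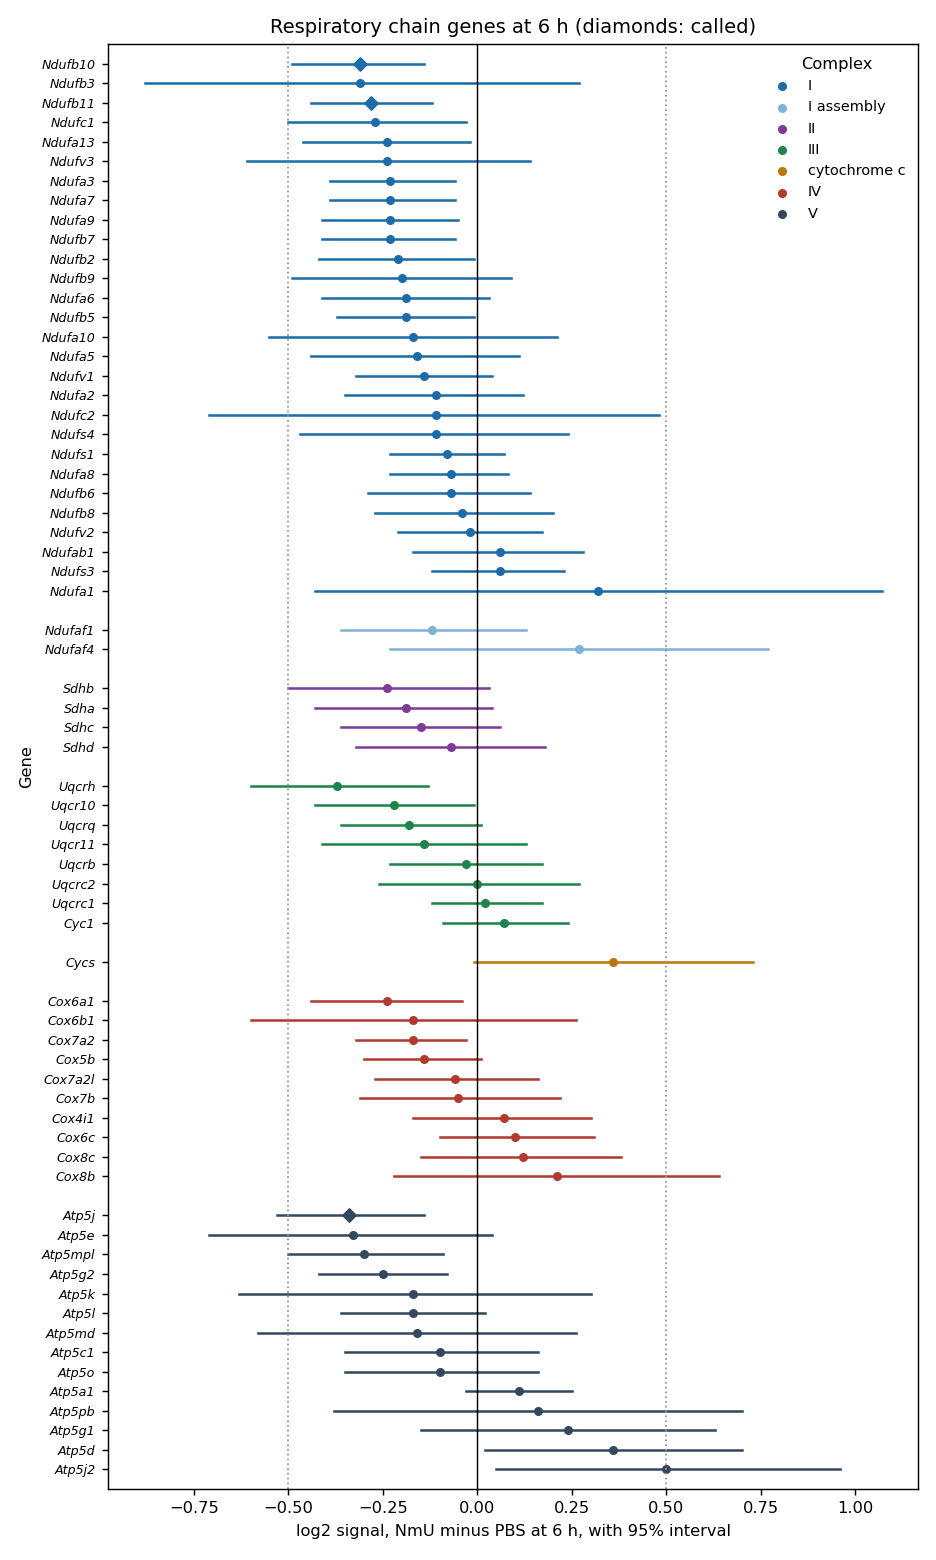
Log2 difference of signal at 6 h, NmU minus PBS, with its 95% interval for each of the 67 genes, ordered within each complex from lowest to highest; diamonds mark called genes and dotted lines 0.5 in either direction. Ndufb10, Ndufb11 and Atp5j are the called genes, and 50 of the 67 points lie below 0.

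As a group, the members had a median log2 difference over the 80 probe sets of -0.06, -0.04, -0.12 and 0.04 at 0.8, 3, 6 and 12 h, against -0.04, -0.03, 0.02 and -0.02 over all 7930. At 6 h 68.8% of the 80 lay below 0, against 46.9% of all probe sets. At 12 h 36.2% of the 80 lay below 0, against 54.1%. At 0.8 and 3 h the shares below 0 were 70.0% and 62.5%, against 60.8% and 54.4%. With the probe sets of each gene averaged, 74.6% of the 67 genes lay below 0 at 6 h, against 47.3% of 6707 genes. Members share the same arrays and are not replicates, so these shares carry no test.

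The median of the 80 at 6 h minus that over all probe sets was -0.14 on the log2 scale with the deposited scaling. It was -0.11 after quantile normalisation and -0.09 after cyclic loess. Scaling to a common median also gave -0.14. That scaling multiplies each array by 1 factor, so apart from the floor and the filter it cannot change this value and is no check of it. On single arrays, the median deviation of the 80 probe sets from their mean over all arrays was -0.12 to -0.01 for NmU and 0.04 to 0.10 for PBS at 6 h. The arrays of the 2 treatments did not overlap there. Over all probe sets the arrays, already scaled to a common mean, lay at -0.01 to 0.06 for NmU and at -0.00 to 0.02 for PBS. Those ranges overlapped. No list of other genes was summarised by array, so whether the separation is particular to the members was not tested. At 0.8 h the members lay at -0.11 to -0.05 for NmU and at -0.06 to 0.02 for PBS. At 3 h they lay at 0.02 to 0.06 for NmU and at 0.01 to 0.13 for PBS, and at 12 h at -0.05 to 0.05 and at -0.08 to 0.05. Group means at the 4 times were -0.07, 0.04, -0.05 and 0.01 for NmU, against -0.02, 0.06, 0.07 and -0.02 for PBS. On these means NmU at 6 h was not below NmU at 0.8 h, whereas PBS at 6 h was above PBS at 0.8 h. The means were not tested.

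The summed signal of the 67 genes averaged 49160 ± 3110 with NmU at 6 h, against 53620 ± 597 with PBS (SD, n = 4 each), and did not overlap. At the other times it averaged 48120 ± 875, 53010 ± 900 and 50970 ± 1770 with NmU at 0.8, 3 and 12 h, against 49920 ± 1350, 54140 ± 2790 and 49110 ± 2600 with PBS (SD). At those times the sums of the 2 treatments overlapped. The summed signal of the T cell markers at 6 h was 4660 to 5090 with NmU, against 5000 to 5190 with PBS, and its part in the result was not tested. A bulk RNA sample does not separate fewer transcripts per cell from a change in the other RNA of the sample, since the arrays are scaled to a common mean.

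**Figure D4:**
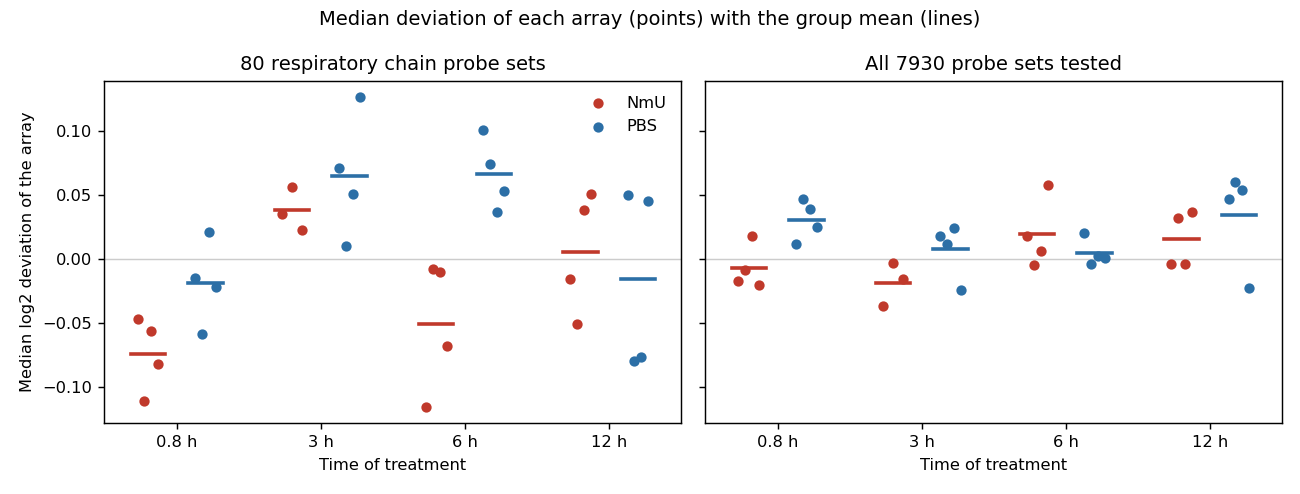
Median log2 deviation of each array (points) from the mean of all arrays, over the 80 respiratory chain probe sets (left) and over all 7930 probe sets (right), with group means (lines), NmU left of PBS at each time. At 6 h the NmU arrays lie at -0.12 to -0.01 and the PBS arrays at 0.04 to 0.10 in the left panel, and the treatments overlap in the right panel.

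With PBS alone, no member was called for a change with time (F test, 0 of 80, against 0.0126% of all probe sets, which is 1 probe set). The lowest adjusted p was 0.405, and 13 members (16.2%) had an unadjusted p under 0.05 by limma, against 8.74% of all probe sets. Against PBS at 0.8 h, the median over the 67 genes was 0.09, 0.07 and -0.01 at 3, 6 and 12 h, against -0.03, -0.03 and 0.00 over all probe sets. Of the 67 genes 50, 48 and 30 lay above 0 at 3, 6 and 12 h, against 3425, 3471 and 3978 of the 7930 probe sets. In these PBS differences Ndufaf4 was lowest (-0.48) and Atp5j2 highest (0.45) at 3 h. At 6 h Ndufa1 was lowest (-0.54) and Atp5e highest (0.51), and at 12 h Ndufb3 (-0.56) and Ndufa10 (0.20). Atp5j, called lower with NmU at 6 h, was at 0.25 in PBS at 6 h against 0.8 h.

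At 6 h the median log2 difference was -0.17 over the 11 genes with the NRF1 letters in the promoter. It was -0.16 over the 43 measured genes without these exact letters. With and without the ETS letters it was -0.17 (15 genes) and -0.14 (39 genes). Of the genes that hold the NRF1 letters, Cycs lay at 0.36 at 6 h and Atp5k, subunit e of complex V, at -0.17, and neither was called.

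Genes that build, supply or regulate the chain were set beside it. Among all probe sets tested 4.44% were higher and 5.73% lower at 3 h, 2.85% higher and 2.03% lower at 6 h, and 0.858% higher at 12 h. Of 13 passing assembly factors and regulators of single complexes, 2 were lower at 3 h and 1 at 6 h. Atpif1, the inhibitor that stops complex V from running backwards, was lower with NmU at 3 and 6 h. Its log2 differences were -0.33 ± 0.08 and -0.31 ± 0.07 (SE, limma, adjusted p = 0.00517 and 0.00918). Foxred1, an assembly factor of complex I, was lower by 0.46 ± 0.12 at 3 h (limma, adjusted p = 0.0129). By the F test over times, Uqcc3 and Uqcc2, assembly factors of complex III, were not called (adjusted p = 0.0588 and 0.211). The median of the list was -0.08, -0.08, -0.06 and 0.02 at 0.8, 3, 6 and 12 h.

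Of 11 passing regulators of respiratory gene expression and mitochondrial DNA, 1 was lower at 3 h and 1 higher at 12 h. Polg2, the accessory subunit of the mitochondrial DNA polymerase, was lower with NmU by 0.72 ± 0.12 at 3 h (SE, limma, adjusted p = 2.27e-04). Myc, a transcription factor that drives growth, was higher by 0.84 ± 0.16 at 12 h (limma, adjusted p = 0.00315). Gabpa, the DNA-binding subunit of GABP, lay between -0.14 and 0.08 and was not called, and by the F test over times neither Tfb2m nor Yy1 was called (adjusted p = 0.320 and 0.353). The median of the list was -0.02, -0.02, -0.09 and -0.02 at the 4 times.

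The 17 passing genes of pyruvate dehydrogenase and the citric acid cycle, which feed the chain with electrons, held 0 calls at every time by limma, with 1, 3, 3 and 4 genes at an unadjusted p under 0.05 at 0.8, 3, 6 and 12 h. Their median was -0.06, -0.08, -0.02 and -0.01, and the lowest F test p belonged to Mdh1, the cytosolic malate dehydrogenase (adjusted p = 0.0761), followed by Idh3g, Suclg1 and Suclg2. The list of carriers and channels of the mitochondrial membranes (9 genes) also held 0 calls by limma, with 1, 1, 0 and 0 at an unadjusted p under 0.05. By the F test over times it was led by Slc25a10, the dicarboxylate carrier (limma, adjusted p = 0.178). Of 17 genes for protein import, 1 was higher at 3 h, the small chaperone Timm10 (0.55 ± 0.15, SE, adjusted p = 0.0181).

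Of 59 passing genes of the mitochondrial ribosome, which translates the subunits encoded in mitochondria, 2 were higher and 1 lower at 3 h and 1 lower at 6 h. With NmU at 3 h Mrps2 was higher by 0.68 ± 0.17, Mrpl38 higher by 0.34 ± 0.09 and Mrpl2 lower by 0.56 ± 0.15 (SE, limma, adjusted p = 0.00868, 0.0109 and 0.0146). Mrpl35 was lower by 0.51 ± 0.09 at 6 h (limma, adjusted p = 8.82e-04). The median of this list at 6 h was -0.02. Of 7 genes of mitochondrial redox defence, 2 were lower at 3 h and 1 at 6 h. Gpx4, which reduces lipid peroxides, was lower by 0.72 ± 0.14 at 3 h and by 0.57 ± 0.13 at 6 h (SE, limma, adjusted p = 0.00107 and 0.00945). Gsr, glutathione reductase, was lower by 0.28 ± 0.09 at 3 h (limma, adjusted p = 0.0477).

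Each of these counts is at most 2 genes, and nothing particular to a list is read from them. At 6 h the medians of these lists lay between -0.09 and 0.05, against -0.14 over the 67 respiratory chain genes. No test of that difference was made.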

How the data were processed

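The deposited table holds, for each of 31 arrays, the linear intensity of every probe set in 1 colour with 12488 probe sets, of which 66 are controls. The scanner, the summary of probes and the scaling that the authors used were not given in the sources used here; per the deposited values, trimmed means (2% off each end) were within 150.09 to 150.11 and medians within 34.4 to 43.3, so the values were used without further scaling. Of the deposited values 162 were exactly 0. Group and replicate were taken from the labels. Probe sets were named through the platform's probe table, and all 101 members matched a RefSeq gene of the same symbol by Entrez number. Another 10 probe sets that list several symbols, a respiratory chain gene among them, were left out.

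Intensities were floored at 5.8 (the 20th percentile) and put on the log2 scale, which understates changes of dim transcripts. Probe sets with a mean log2 value above that of 20.2 (the 40th percentile) in at least 1 group were kept, 7930 in all. One limma 3.58.1 model (R 4.3.3; lmFit, then eBayes; degrees of freedom 23 residual, 2.72 prior) held a mean for each of the 8 groups. P-values are two-sided and adjusted by the Benjamini-Hochberg method over all 7930. The scripts were tested on simulated data. Same-numbered replicates of NmU and PBS did not deviate together (correlations from -0.224 to 0.204), so the numbers were not taken to pair samples. Tables were made with pandas 2.3.3 in Python 3.11.15.

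Values in every group are given for members called at a time or by the F test, for the largest difference in each direction per complex, and for tissue-restricted isoforms with their partners. Atp5g2 and other genes named beside these were chosen after their values were seen. The members and lists were chosen with earlier results of these data known. Alternatives were other scalings, floors, filters, array weights, an intensity trend, a replicate block, fits of single comparisons, a 1.5-fold minimum and the exclusion of arrays.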

Additional observations from a re-analysis of the deposited data

Results flagged for a closer look

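Among 147 groups of 4 arrays tested for an array apart from the rest (the 14 named members other than the subunit isoforms, and the array medians), 9 (6.12%) held an array whose gap to the nearest of the others was most of the range of the group. Chance flags about 1 in 20 such groups.

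For Atp5j, NmU 0.8 h replicate 3 read 694, with the others at 767 to 774. PBS 6 h replicate 4 read 842, with the others at 952 to 963, in the comparison where Atp5j was called. PBS 12 h replicate 2 read 701, with the others at 820 to 836.

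For Uqcr11, NmU 0.8 h replicate 2 read 531, with the others at 697 to 710, and PBS 6 h replicate 2 read 763, with the others at 688 to 696. Cox7b read 540 at NmU 12 h replicate 1, with the others at 739 to 763. Ndufa1 read 36.4 at PBS 0.8 h replicate 1, with the others at 43.6 to 44.4.

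The median deviation of complex I was -0.08 at NmU 12 h replicate 2, with the others at 0.02 to 0.03. The median deviation over all probe sets was -0.02 at PBS 12 h replicate 4, with the others at 0.05 to 0.06.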

How the results depend on the processing

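The counts of 0 at 0.8 and 12 h held under every alternative run. With the arrays scaled to a common median, 0 members were lower at 3 h and 0 at 6 h, against 3.34% and 2.18% of all probe sets, and 0 were called at any time. The median over members was then 0.02 at 0.8 h, -0.20 at 6 h and 0.10 at 12 h. After cyclic loess 1 of 80 members (1.25%) was lower at 6 h (Ndufb10), against 2.06% of all probe sets. With a floor at the 40th percentile, 4 of 87 members (4.6%) were lower at 3 h, against 5.03% of all probe sets. At 6 h 4 (4.6%) were, against 2.01%. Under that floor 6 were called at any time and 1 effect differed between times. With no filter, 1 of 101 members was higher at 3 h (Cox6c), against 366 of 12422 probe sets. In that fit 3 (2.97%) were lower at 3 h, against 3.53%, and 4 (3.96%) at 6 h, against 1.3%. Without the filter 6 were called at any time and 1 effect differed between times. With array weights 9 of 80 (11.2%) were lower at 6 h, against 3.98% of all probe sets. An intensity trend and robust prior gave 2 of 80 (2.5%) lower at 3 h, against 6.12%, and 4 (5.0%) at 6 h, against 2.46%. With the replicate number as a block, 0 were called at any time. In that fit 1 of 80 (1.25%) was lower at 3 h, against 6.0% of all probe sets, and 2 (2.5%) at 6 h, against 2.27%. With only the 2 groups compared, 0 were lower at 3 h and 0 at 6 h, against 0.769% and 0.668%, from fewer arrays per fit. A minimum of 1.5-fold left 0 at 3 h and 0 at 6 h, since no decrease reached it. Leaving out 1 array at a time gave 1 to 3 lower at 3 h, 0 to 5 lower and 0 to 1 higher at 6 h, 1 to 4 called at any time and 0 to 1 whose effect differed between times. Without replicate 2 or 3 of PBS at 3 h, 3 members (3.75%) were lower at 3 h, against 5.06% and 4.93% of all probe sets. Without replicate 1 or 3 of NmU at 3 h, 1 was called at any time. One effect differed between times without NmU 6 h replicate 3. PBS 3 h replicate 4 and NmU 6 h replicate 4 were also left out together, a choice made after seeing the data. That gave 1 of 81 (1.23%) lower at 3 h, against 6.89% of all probe sets, and 2 (2.47%) at 6 h, against 3.12%. Except where a value shows it, the cause of these differences was not tested.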
